A study of Canis lupus familiaris with 12 samples.

Results

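The untreated cells of this series are the dog melanoma line Mi/CMM1 grown without drug, and they were profiled on 3 of its 12 arrays, chosen by their control label alone. Messenger RNA was measured with Agilent one-colour (Cy3) dog arrays. The other 9 arrays, 3 each, carried RNA of cells given piroxicam, carprofen or robenacoxib, all nonsteroidal anti-inflammatory drugs. No drug contrast was made here. The 3 control arrays were read for which named genes gave strong signal, which gave signal just above background, and which were not told from background.

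Per the labels, Mi/CMM1 came from an oral melanoma, an aggressive pigment cell tumour that is common in dogs. It is 1 cell line and so stands for 1 tumour. The cells were grown in RPMI-1640 medium with 10% heat-inactivated fetal bovine serum and 5 mg/L gentamicin, at 37 °C under 5% CO2. The control label names no vehicle. An exposure of 6 h stands in the sample labels and the design text and 24 h in the treatment protocol, so the time in culture of the controls was not settled. The design text calls the replicates biological but does not describe separate cultures, so the spread between them may be partly technical. All 3 control arrays lay on 1 slide, which makes every standard deviation (SD) below a spread within that slide.

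Melanocytes are pigment cells that arise from the neural crest. Their master transcription factor MITF switches on the enzymes of melanin synthesis, among them tyrosinase (TYR), and hormone signals reach it through the melanocortin receptor MC1R. Melanin is built in melanosomes, organelles related to lysosomes that are sorted and moved by proteins such as AP3B1, RAB27A and melanophilin (MLPH). Melanomas often keep part of this programme and lose another part, and amelanotic oral melanomas are well known in dogs.

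The array held 43603 distinct probes. Through a RefSeq gene table, 1313 of them (3.01%) could be named, which gave 832 genes. The remaining 42290 probes carried no name here, so a gene missing from the text was in most cases not analysed. Levels are log2 of the scanner's processed signal minus the 75th percentile of the same array, so that 0 is the signal of that percentile and each unit is a doubling. Values are means ± SD over the 3 control arrays (n = 3). Probes differ in how well they bind their target, so a level places a probe within the signal of the array and does not count transcripts. No test was made, since there was 1 group.

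The scanner software marked 76.9%, 73.7% and 79.3% of the probes as well above background on control 1, 2 and 3. The signal of the 75th percentile was 2148, 2110 and 2084, and no spot was saturated. Arrays correlated across all probes with r = 0.994 (controls 1 and 2), 0.991 (1 and 3) and 0.988 (2 and 3). The median level of the 153 negative control spots was -9.51, -9.39 and -8.98, so background stood highest on control 3. Transcripts spiked in at known amounts gave a slope of 0.925 to 0.952 between log signal and log amount, per the file headers. The number of arrays, 3, limits the precision of every value.

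A probe was called present when it was well above background on all 3 arrays and not detected when it was so on none. Present probes made up 71.9% of all probes, and 18.1% were not detected. Among the 832 named genes, 599 (72.0%) had a present probe, 128 (15.4%) were not detected on any probe and array, and 105 were mixed, above background on some arrays or probes only. A gene was read on its brightest present probe. Present genes were then placed by the levels of all probes, as abundant above the 95th percentile (3.62), high from the 75th percentile up to that level, middle from the median (-3.70) to the 75th percentile, and dim below the median. By this scheme 72 named genes (8.65%, against 5.0% of all probes) were abundant, 151 high, 188 middle and 188 (22.6%, against 21.9%) dim. Abundant and high genes together made up 26.8% of the named genes, against 25.0% of the probes. Since a gene takes its brightest present probe, shares of genes and of probes are not alike. Counted by probe, 68.2% of the 1313 named probes were present, 20.0% not detected and 24.9% present above the 75th percentile.

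**Figure D1:**
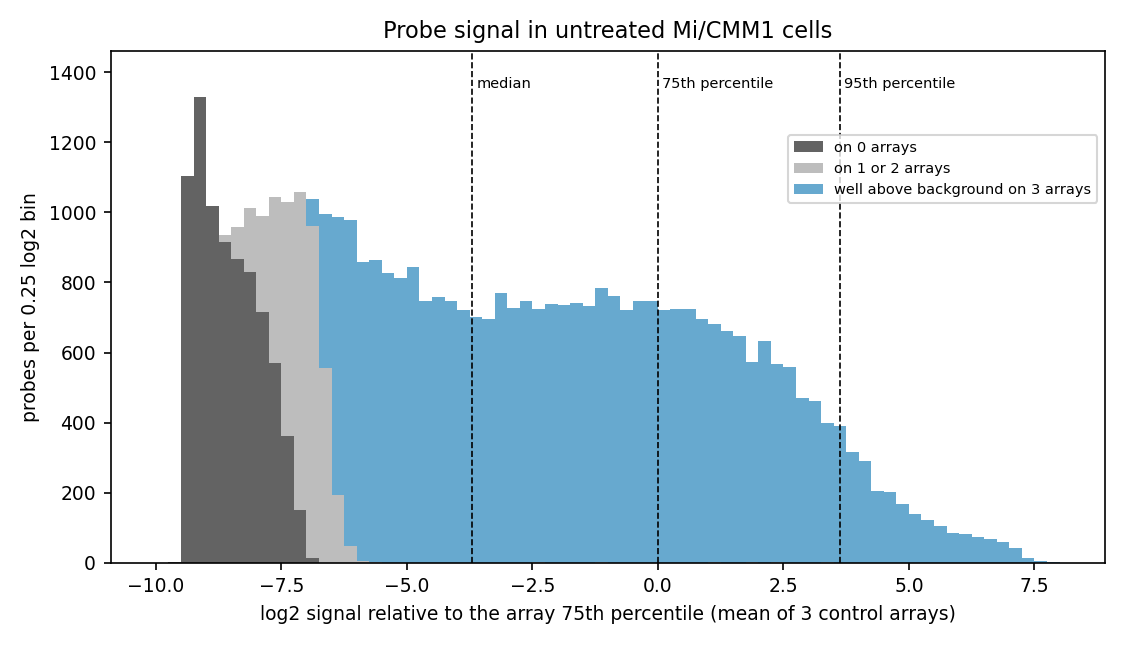
Number of probes per 0.25 log2 bin of mean level over the 3 control arrays, stacked by the number of arrays on which a probe was well above background. Probes not detected pile up below -7, probes on 1 or 2 arrays lie between them and the present probes, and the dashed lines mark the median, the 75th and the 95th percentile of all probes.

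Among genes of the pigment cell lineage, MITF was present and tyrosinase was not detected. Of 43 genes listed, 14 had a named probe: 4 were high, 1 middle, 5 dim, 2 mixed and 2 not detected. By share the list lay close to all named genes, with 71.4% present and 28.6% above the 75th percentile against 72.0% and 26.8%. By level it lay lower, with a median of -5.81 against -3.80 for all named genes. AP3B1, a subunit of the adaptor complex that sorts cargo to melanosomes and lysosomes, read 3.07, 3.05 and 3.08 on control 1, 2 and 3. RAB27A, the small GTPase that ties melanosomes to the actin track, read 2.88, 2.90 and 2.91. Both stood well above the 75th percentile with hardly any spread, and both also work outside pigment cells. SNAI2, a zinc finger repressor of the neural crest, was high at 2.50 ± 0.02. KITLG, the ligand of the KIT receptor that melanocytes need to survive and migrate, was high at 0.92 ± 0.03.

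MITF lay in the middle class. Its brighter probe read -0.57, -0.54 and -0.53 and its other probe averaged -2.77 ± 0.01, both present on every control array. MITF has several promoters that serve different cell types, and these probes were not assigned to an isoform. The other 5 present genes of the list were dim. SLC45A2, a melanosomal transporter mutated in albinism, was dim at -5.09 ± 0.10. MC1R read -5.29, -6.00 and -5.87, which is present but below the array median. ASIP, the secreted antagonist of MC1R, read -6.62, -6.60 and -5.54, the last on control 3. Its other probe was mixed, and ASIP was well above background on 6 of the 12 arrays. MLPH, which links RAB27A to a myosin motor, was dim at -6.58 ± 0.24 and was well above background on 6 of the 12 arrays of the series. MC4R, a melanocortin receptor of the brain, was dim at -5.91 ± 0.23.

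TYR, the rate-limiting enzyme of melanin synthesis, read -9.34, -9.19 and -8.79, at the level of the negative control spots. It was well above background on 0 of the 12 arrays. Its 1 named probe leaves only an upper bound, the lowest level called above background, which was -7.30, -7.20 and -6.79 on the 3 arrays. KIT, the receptor tyrosine kinase of melanoblasts, was mixed on 1 probe (-6.94 ± 0.26), and its other 2 probes were not detected. The endothelin receptor EDNRB, which guides melanoblasts, was not detected, and its ligand EDN3 was mixed (-6.94 ± 0.98). Of 16 genes fixed as markers of pigment cells, 7 had a named probe, 4 of them were present (MITF, SLC45A2, MC1R and MLPH) and 0 lay above the 75th percentile. With so few markers measured, the pigment cell label of the line could be checked only in part. In bulk RNA, fewer expressing cells and less RNA per cell cannot be told apart. TYRP1, DCT, PMEL, MLANA and SOX10 had no named probe and were not analysed here.

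**Figure D2:**
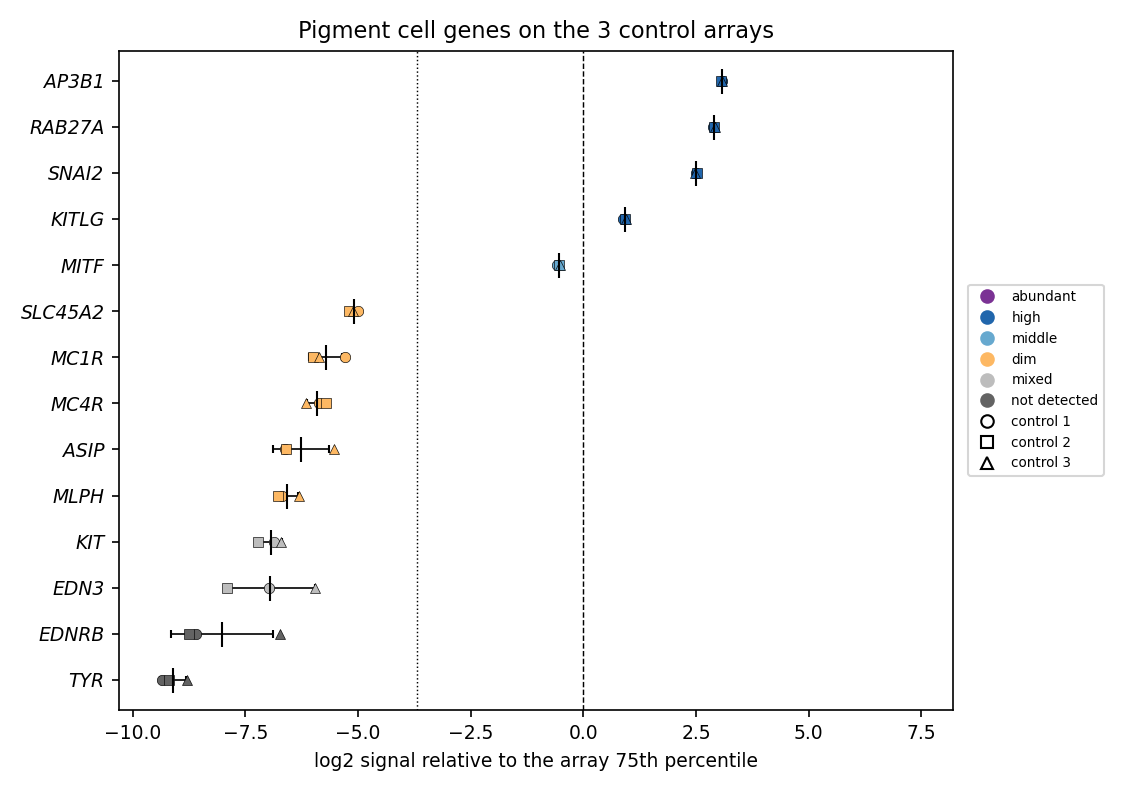
Level of the 14 pigment cell genes with a named probe on each control array (circle, square and triangle) with mean and SD bars, coloured by class; the dashed line is the 75th percentile and the dotted line the median of all probes. AP3B1, RAB27A, SNAI2 and KITLG lie above the 75th percentile, and TYR and EDNRB were not detected.

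The 15 named genes of strongest signal lay between 6.34 and 7.63. GAPDH, the glycolytic enzyme often used as a reference gene, read 7.59, 7.65 and 7.67 and ranked 2 among all probes. All 7 of its probes were present, from 5.84 to 7.63. ACTG1, cytoplasmic gamma actin, read 6.99, 7.05 and 7.07. Ribosomal protein genes made up 4 of the 15, among them RPL27 at 6.74 ± 0.02, RPS18 at 6.67 ± 0.01 and RPL23 at 6.54 ± 0.04. OAZ1, the antizyme that brakes polyamine synthesis, reached 6.56 ± 0.03. ANXA2, a membrane-binding annexin, reached 6.47 ± 0.01. HMGA1, a chromatin protein high in many tumours, reached 6.41 ± 0.02, and NME2, a nucleoside diphosphate kinase, 6.34 ± 0.01.

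Other genes among the 15 are less familiar in such cells. LOC403631 has only a placeholder symbol in the gene table, and its 5 probes were all abundant, at 6.80 to 7.35. RHAG, the Rh-associated glycoprotein of red blood cells, read 6.90, 6.91 and 6.88, and another of its probes was also abundant while the third was mixed at -7.24. AMN, which forms the intestinal and renal vitamin B12 receptor together with CUBN, read 6.62, 6.63 and 6.60 on its 1 probe. CUBN itself was in the middle class at -0.62 ± 0.05. Binding of these probes to other transcripts was not tested.

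Genes that carry new proteins into the endoplasmic reticulum gave strong signal throughout. All 16 with a named probe were present, against 72.0% of all named genes, and all lay above the 75th percentile, against 26.8%. Of these 12 were abundant and 4 high, where 8.65% of all named genes were abundant. Their median level was 4.34, where the median of all named genes was -3.80. SSR2, a subunit of the translocon-associated complex, read 6.75, 6.78 and 6.75. HSP90B1, the chaperone GRP94 of the endoplasmic reticulum, read 6.05, 6.06 and 6.05. SEC61A1, the pore of the translocon, averaged 5.63 ± 0.05 on its brightest probe, though another of its probes averaged only -0.95. The weakest of the list were still above the 75th percentile: SPCS2, a signal peptidase subunit, at 2.30 ± 0.05 and CANX, the lectin chaperone calnexin, at 1.72 ± 0.03. Among heat shock genes, HSPA4 was abundant (5.54 ± 0.03), HSPB1 (3.55 ± 0.01) and HSP70 (2.86 ± 0.05) high, and HSPB8 middle (-2.41 ± 0.03).

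Antioxidant and metal-binding genes were present in all 14 cases, against 72.0% of all named genes, with a median of 2.13. Abundant were 6 of them, where 8.65% of all named genes were abundant. GPX1, the glutathione peroxidase that removes hydrogen peroxide, read 6.43, 6.41 and 6.41. FTL, the ferritin light chain of iron storage, averaged 6.24 ± 0.03, and SOD1, cytoplasmic superoxide dismutase, 6.11 ± 0.08. TXNRD1, thioredoxin reductase, averaged 5.34 ± 0.02. The metallothioneins covered the range from MT2A, high at 2.39 ± 0.02, through MT1E, middle at -0.39 ± 0.03, to MT4, dim at -4.04 ± 0.11; MT4 is best known from stratified epithelium. Selenoproteins overlapped this list: 13 of 14 were present and 6 abundant, among them SELENOW (6.12 ± 0.01). The deiodinases, which act on thyroid hormone, were the weak end, with DIO2 dim (-6.40 ± 0.56) and DIO1 not detected.

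**Figure D3:**
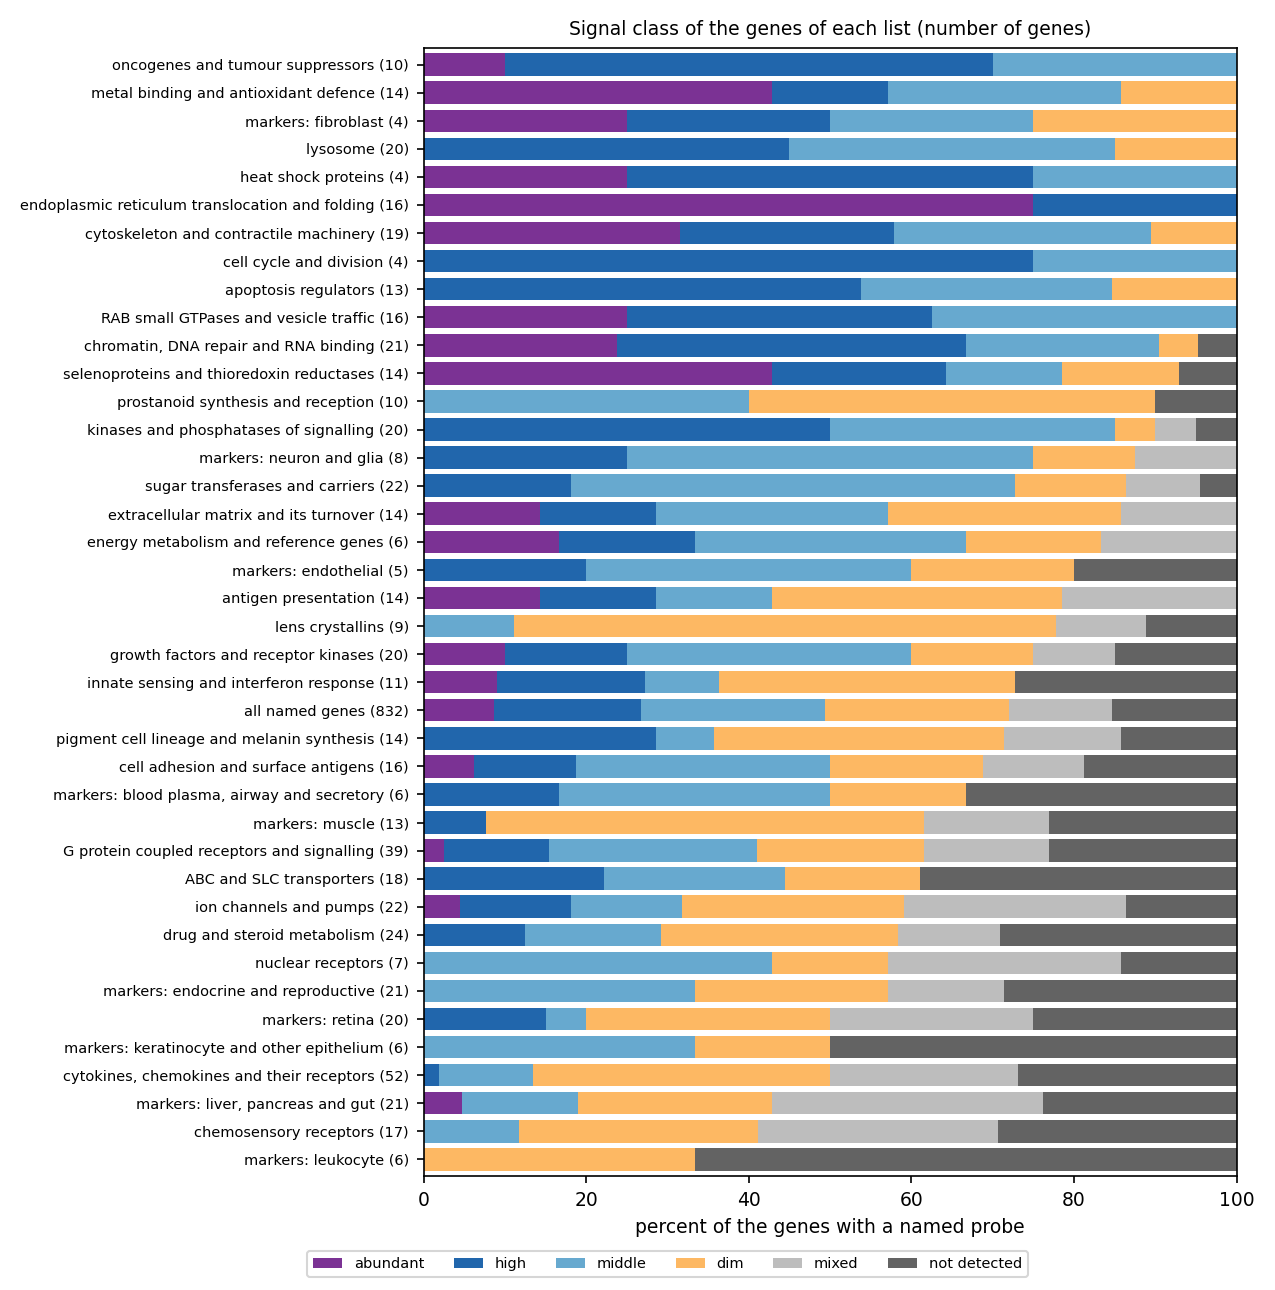
Share of the genes of each list in each signal class in the untreated cells, with the number of genes with a named probe in brackets and the 832 named genes as a bar for comparison. Endoplasmic reticulum genes were all abundant or high, while only dim or not detected genes made up the leukocyte markers.

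Vesicle traffic genes were also present without exception. Of 16 RAB GTPases and related genes, 4 were abundant, 6 high and 6 middle. CAV1, the coat protein of caveolae, read 5.34, 5.28 and 5.28. RAB11A of recycling endosomes averaged 4.29 ± 0.02 and RAB1A, which acts between endoplasmic reticulum and Golgi, 3.89 ± 0.04. RAB8A (-2.78 ± 0.10) and RAB22A (-2.44 ± 0.04) lay in the middle class. The 20 lysosomal genes were all present but none was abundant: 9 were high, 8 middle and 3 dim. Above the 75th percentile lay 62.5% of the vesicle traffic list and 45.0% of the lysosomal list, against 26.8% of all named genes. Among all named genes 72.0% were present. CTSA, the protective protein cathepsin A, was high at 3.26 ± 0.05, FUCA1, a fucosidase, at 2.89 ± 0.03 and PPT1, a thioesterase, at 1.69 ± 0.02. Another CTSA probe averaged only -2.74. TPP1, a tripeptidyl peptidase of the lysosome, was dim at -4.66 ± 0.08, and CTSS, a cathepsin of antigen-presenting cells, at -4.73 ± 0.13.

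The cytoskeleton and chromatin lists, both drawn up after the names on the array were known, were nearly complete. All 19 cytoskeleton genes were present, against 72.0% of all named genes, and 6 were abundant, where 8.65% of all named genes were. ACTR1A of the dynactin complex averaged 5.11 ± 0.07 and MYH9, non-muscle myosin, 4.95 ± 0.02. Of 21 genes of chromatin, DNA repair and RNA binding, 20 were present and 5 abundant. HMGB1 averaged 5.58 ± 0.01 and HMGN2 5.09 ± 0.02, both non-histone chromatin proteins. Another HMGN2 probe averaged only -1.66. MGMT, which repairs alkylated guanine, was dim, with -6.50, -6.49 and -6.01 on the 3 arrays. RBM47, an RNA-binding protein of epithelia, was not detected.

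Genes of growth control were present in every measured case, mostly high. Among 10 oncogenes and tumour suppressors 1 was abundant, 6 high and 3 middle, with a median of 1.03. Above the 75th percentile lay 70.0% of them, against 26.8% of all named genes, of which 72.0% were present. NME1, a nucleoside diphosphate kinase described as a metastasis suppressor, read 5.12, 5.20 and 5.20. MYC read 0.42, 0.47 and 0.47, just inside the high class. BRCA1 (-1.63 ± 0.02) and VHL (-2.59 ± 0.06) were middle. In the cell cycle list, of which 4 genes of 33 had a named probe, CCND1 (cyclin D1) was high at 3.14 ± 0.02, BIRC5 (survivin) at 3.01 ± 0.04 and CCNB3 at 2.30 ± 0.05. TERT, the catalytic subunit of telomerase, was middle at -2.78 ± 0.14 on its brighter probe.

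All 13 apoptosis regulators were present, against 72.0% of all named genes. Above the 75th percentile lay 7 (53.8%, against 26.8%), all of them high. MCL1, an inhibitor of apoptosis that turns over quickly, read 2.60, 2.64 and 2.63, and BCL2, its relative, 0.76, 0.70 and 0.70. BAX, which opens the mitochondrial membrane, was high at 1.62 ± 0.03 and BIRC2, a ubiquitin ligase of the inhibitor of apoptosis family, at 2.24 ± 0.04. BCL2L1 (-4.34 ± 0.16) and CASP12 (-4.41 ± 0.02) were the dim members. Among 20 kinases and phosphatases 18 (90.0%) were present and 10 (50.0%) high. FASTK averaged 3.56 ± 0.02 and PPP1CC, a catalytic subunit of protein phosphatase 1, 3.01 ± 0.06. CDKN1A, CDKN2A, BRAF and NRAS had no named probe and were not analysed here.

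Growth factors and their receptors lay near the shares of all named genes. Of 20 genes 15 were present, against 72.0% of all named genes, with 2 abundant and 3 high, and 3 were not detected, against 15.4%. ADM, the vasodilator adrenomedullin that hypoxia induces, read 4.15, 4.13 and 4.14. IGF2R, which clears IGF2 and carries lysosomal enzymes, averaged 3.68 ± 0.03. VEGFA, the main angiogenic factor, averaged 3.32 ± 0.03 on 1 probe and -3.24 on its other, both present. ANGPT2 (-5.88 ± 0.40) and FGF7 (-5.80 ± 0.48) were dim. KDR, the VEGF receptor of endothelium, BDNF and MSTN were not detected.

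Of 14 matrix genes 12 were present, 4 of them (28.6%, against 26.8% of all named genes) above the 75th percentile. TIMP1, an inhibitor of matrix metalloproteinases, read 6.27, 6.23 and 6.23. COL1A2, a chain of type I collagen, read 6.04, 5.99 and 5.99, with all 6 of its probes present. COL1A1, its partner chain, averaged 3.41 ± 0.02 on its brightest probe and -4.46 on its dimmest. DCN, the collagen-binding proteoglycan decorin, was dim (-5.26 ± 0.16), as was the cartilage collagen COL2A1 (-6.34 ± 0.47). In the adhesion list CD47, a surface signal that restrains phagocytes, was abundant (3.89 ± 0.04), and the tight junction scaffold TJP1 was high (2.42 ± 0.004). Other junction genes were not: OCLN and the desmogleins DSG1 and DSG3 were not detected, and CLDN2 was dim (-5.47 ± 0.61). The other CLDN2 probe was not detected.

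The prostanoid genes, which hold the targets of the drugs given to the other arrays, were all below the 75th percentile. Above that level lay 26.8% of all named genes. Of 10 prostanoid genes 9 (90.0%, against 72.0%) were present, 4 in the middle class and 5 dim, where 22.6% of all named genes were dim. PTGS2, the inducible cyclooxygenase, read -3.25, -3.18 and -3.27, close to the array median. PTGS1, the constitutive cyclooxygenase, read -6.40, -6.94 and -6.29 on its present probe, near the lower limit of detection, and its other probe was not detected. PTGES, which makes prostaglandin E2, was dim at -4.99 ± 0.14. Of the receptors for prostaglandin E2, PTGER4 was middle (-2.03 ± 0.04) and PTGER2 dim (-5.90 ± 0.24). The uptake carrier SLCO2A1 (-2.26 ± 0.10) and the phospholipase PLA2G1B (-2.25 ± 0.11) were middle, and AKR1C3 was not detected.

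Cytokines, chemokines and their receptors were mostly dim, mixed or not detected. Of 52 genes 26 were present, against 72.0% of all named genes, and 1 of them, IFNA7, lay above the 75th percentile. IFNA7, an interferon alpha, read 0.60, 0.54 and 0.48 on 1 probe, while its other probe averaged -7.65 and was not present. CXCL8, a chemoattractant for neutrophils, read -0.98, -1.02 and -0.98 on its brightest probe, and all 4 of its probes were present, down to -3.77. CD40LG, a costimulatory ligand of T cells, was middle at -1.07 ± 0.01. A further 19 genes were dim, with CCL3 (-6.27 ± 0.26) and CCL5 (-6.63 ± 0.53) at the lower end. Another 14 (26.9%, against 15.4% of all named genes) were not detected, among them the receptors CCR1 and ACKR3 and the chemokine CCL13. IL1A and IL1B, both inflammatory interleukins, were not detected either. Of other inflammatory cytokines TNF (-3.92 ± 0.03) and IL18 (-5.11 ± 0.34) were dim and IL6 was mixed.

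Of 11 innate immune genes 8 (72.7%, against 72.0% of all named genes) were present and 3 (27.3%, against 26.8%) lay above the 75th percentile. OAS2, an interferon-induced sensor of double-stranded RNA, was abundant at 3.88, 3.90 and 3.92. Of its relatives OAS1 was high at 0.24 ± 0.03 and OAS3 dim, with a mean of -4.50. NFKB1 was high at 2.12 ± 0.03 and MX1, an antiviral GTPase, middle at -1.48 ± 0.03. TLR7 (-4.56 ± 0.17) and the antimicrobial peptide CAMP (-4.79 ± 0.19) were dim, and TLR2, TLR4 and DEFB1 were not detected. In antigen presentation, the class I genes DLA-64 (4.59 ± 0.06) and DLA88 (3.69 ± 0.02) were abundant and the immunoproteasome subunit PSMB9 was high (3.01 ± 0.02). Of the class II genes DLA-DQB1 was dim at -6.65 ± 0.23, with 2 of its 4 probes not detected, while the class I gene DLA-79 was dim as well (-5.99 ± 0.57). These genes are close relatives in sequence, and whether their probes share signal was not tested.

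Of 18 ABC and SLC transporters 11 (61.1%, against 72.0% of all named genes) were present and 7 (38.9%, against 15.4%) not detected. ABCB1, the multidrug efflux pump P-glycoprotein, read 2.51, 2.52 and 2.49 on its brighter probe. Its other probe was present too but averaged only -1.74, a level of the middle class. SLC11A1, a metal transporter of phagosomes, averaged 2.09 ± 0.004, and ABCA4, known from photoreceptors, 0.66 ± 0.01. SLC1A3 was dim (-5.75 ± 0.11), and ABCC2, CFTR, SLC15A1 and SLC1A1 were not detected. Of 24 genes of drug and steroid metabolism 14 (58.3%) were present and 7 (29.2%) not detected. High genes, 3 in all, included SULT1A1, a sulfotransferase (1.64 ± 0.08), and TPMT, which methylates thiopurines (0.99 ± 0.01). The cytochromes CYP1A2 (-5.88 ± 0.39) and CYP19A1 (-5.54 ± 0.13) were dim, and CYP2E1, CYP3A26 and FMO1 were not detected. Of 7 nuclear receptors 4 (57.1%) were present and 0 lay above the 75th percentile, against 72.0% and 26.8% of all named genes. ESRRA (-0.61 ± 0.01) and PPARD (-0.66 ± 0.02) were middle, NR4A1 was dim (-4.88 ± 0.15) and PPARG was not detected.

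Of 39 G protein coupled receptors and their partners 24 (61.5%, against 72.0% of all named genes) were present and 6 (15.4%, against 26.8%) lay above the 75th percentile. GNAS, the stimulatory alpha subunit, was abundant at 4.90, 4.86 and 4.93, and GNB1 (3.42 ± 0.07) and GNAI2 (2.78 ± 0.02) were high. High receptors were ADRB3 for noradrenaline, with a mean of 1.36, and ADORA2A for adenosine, with 0.31. Among the partners PRKACA, a catalytic subunit of protein kinase A, was middle (-2.85 ± 0.06), and so was the beta subunit GNB3 (-3.43 ± 0.03). Receptors at the dim end were HTR2B for serotonin (-5.32, -5.25 and -5.31), TACR1 for substance P (-6.13 ± 0.73) and EDNRA for endothelin (-6.32 ± 0.89). CCKAR, GHSR and GNRHR were not detected. Of 22 ion channels and pumps 13 (59.1%) were present and 4 (18.2%) lay above the 75th percentile, again against 72.0% and 26.8%. ATP1B1, a subunit of the sodium pump, was abundant (3.64 ± 0.03), the potassium channel KCNA5 (1.71 ± 0.01) and the chloride transporter CLCN3 (0.65 ± 0.02) were high, and TRPM8 (-6.26 ± 0.28) and CNGA1 (-6.01 ± 0.41) were dim. Another CLCN3 probe averaged only -4.82. Chemosensory receptors, 17 genes, had 7 (41.2%) present and 0 above the 75th percentile. Even so, OR52N2G read -2.21, -2.42 and -2.52, and OR56B2 -2.76, -2.74 and -2.73 on 1 of its 3 probes, both in the middle class.

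Markers of other cell types were read beside the pigment genes. Of all named genes 72.0% were present and 15.4% not detected. Present were 33.3% of the leukocyte, 50.0% of the epithelial and 80.0% of the endothelial markers. All 4 fibroblast markers with a named probe were present. COL1A2 was abundant, COL1A1 high on its brightest probe only, PDGFRB middle (-3.30 ± 0.06) and DCN dim. Collagen genes can be expressed by melanoma cells as well, and whether other cells were in the culture was not tested. Of 6 leukocyte markers CD4 (-4.15, -4.24 and -3.81) and CD8A (-5.48, -5.03 and -4.82) were dim, and CD28, FCER1A, IL2RA and MS4A1 were not detected. Of 6 epithelial markers CLDN3 (-3.29 ± 0.16) and TGM1 (-3.39 ± 0.11) were middle, KRT2 dim (-5.50 ± 0.41) and DSG1, DSG3 and KRT1 not detected. Endothelial markers gave VWF high (0.35 ± 0.04), NOS3 (-1.05 ± 0.03) and CD34 (-1.41 ± 0.02) middle, SELE dim (-5.83 ± 0.23) and KDR not detected. A second probe of CD34 was not detected, nor was the second probe of CD8A.

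Markers of differentiated tissues differed between lists. Present were 61.5% in muscle, 50.0% in retina and 42.9% in liver, pancreas and gut, against 72.0% of all named genes. The endocrine and reproductive list had 57.1% present and the blood plasma, airway and secretory list 66.7%. In the neuronal and glial list 7 of 8 genes were present, 2 of them high and 4 middle. Of 13 muscle markers 7 were dim, 3 not detected, MYH4 and PLN among them, and 1, the dystrophin gene DMD, high. Of 20 retinal markers 10 were present. RPE65, the isomerase of the visual cycle, read 3.63, 3.54 and 3.42 on 1 probe and was not detected on its other. PDE6D, a carrier of prenylated proteins made in many tissues, averaged 3.34 ± 0.01 and was present on both probes. PDE6G, the inhibitory subunit of the rod phosphodiesterase, averaged 0.70 ± 0.03, while the rod transducin GNAT1 and the cone channel CNGB3 were not detected. Among neuronal and glial markers, APP (1.46 ± 0.03) and PRNP (0.25 ± 0.04), both widely expressed, were high, and HCRT (-0.05 ± 0.09), DBH (-2.02 ± 0.09) and TH (-2.20 ± 0.09) were middle. The other DBH probe averaged only -5.92. SOX9, a transcription factor of cartilage, gonad and neural crest, was middle at -0.50 ± 0.02. CELA1 (-0.72 ± 0.09) and CRH (-1.39 ± 0.02) were middle, and the hormone genes PTH, GH1 and CGA were not detected.

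A gene with several probes could fall into more than 1 class. Of the 832 genes 333 had several probes, and 45 had both a present and a not detected probe. In 206 genes at least 2 probes were present, and the median range between those probes was 1.84 log2 units, with 99 genes over 2 units. DMD, whose transcripts are very long and include short forms, spanned 10 probes from 1.40 ± 0.06 down to a probe not detected, with 7 present. MYH7, the slow muscle myosin, had 14 probes of which 2 were present. The median SD between arrays was 0.047 in present genes, so the class of such a gene depends mainly on the probe read.

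**Figure D4:**
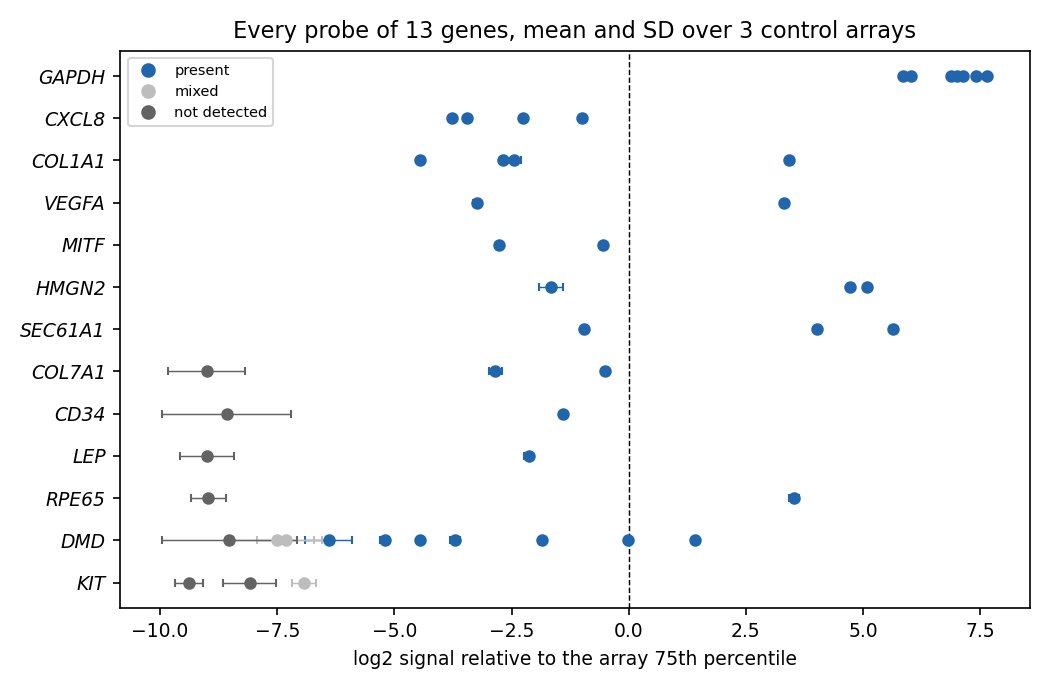
Level of every probe of 13 genes, as mean and SD over the 3 control arrays, coloured by whether the probe was present, mixed or not detected. The 7 GAPDH probes lie between 5.84 and 7.63, while those of DMD, COL1A1 and RPE65 spread over several units.

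The spread between the control arrays grew as the signal fell. The median SD was 0.027 in abundant genes, 0.030 in high, 0.042 in middle and 0.19 in dim genes. Of the 599 present genes 20 had an SD above 0.5. GATA4, a transcription factor of heart and gonad, had the largest, with -6.88, -5.82 and -5.04. CCL28, EDNRA, CCL21 and CNTFR followed, and in each of these the high value was on control 3, as with CCL21 at -6.51, -6.84 and -5.27. Control 3 was the highest of the 3 arrays in 124 of 188 dim genes and in 112 of 128 not detected genes, but in 20 of 72 abundant genes. Of the 105 mixed genes 45 were above background on control 3 alone, 12 on control 1 alone and 4 on control 2 alone. Negative control spots were also highest on control 3, and their part in these values was not tested.

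**Figure D5:**
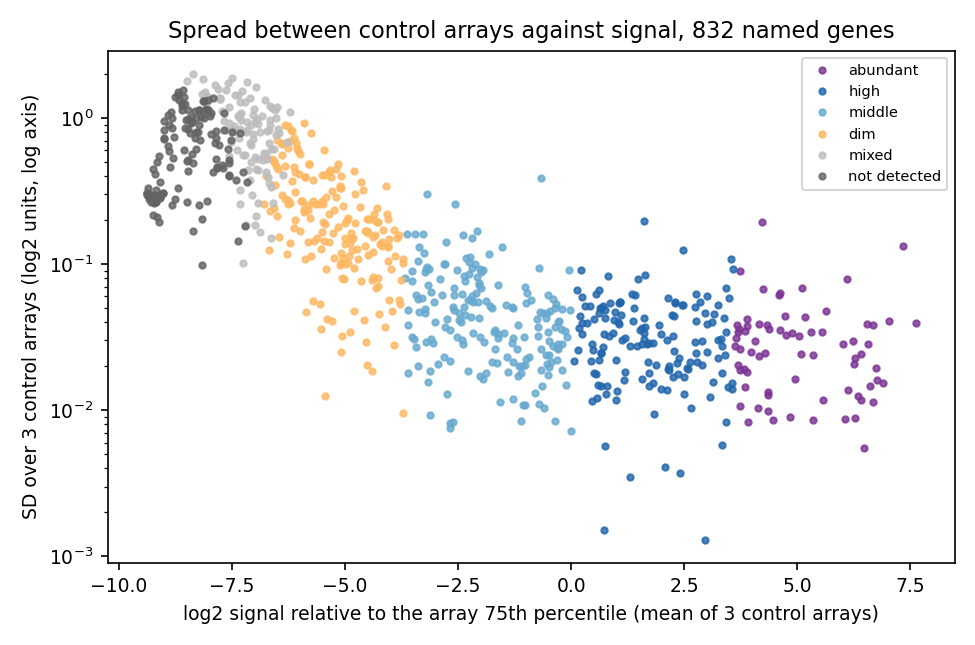
SD over the 3 control arrays (log2 units, log axis) against mean level for the 832 named genes, coloured by class. The median SD rises from 0.027 in abundant to 0.19 in dim genes.

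The drug arrays served to ask whether a call in the controls was seen elsewhere in the series. Of the 599 genes present in untreated cells 548 were above background on all 12 arrays, and 50 of the 51 that were not were dim. Of the 128 genes not detected in the controls 94 were above background on no array of the 12, TYR and EDNRB among them. The other 34 were above background on at least 1 drug array, and 0 on all 9. TLR2, a receptor for bacterial lipoproteins, was seen on 5 arrays and FMO1 on 3. These counts compare calls and not levels, and the drug arrays lay mostly on other slides.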

How the data were processed

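Feature Extraction 10.7.3.1 (protocol GE1_107_Sep09) read the arrays, per the file headers. The deposited files hold spot intensity that this software background-subtracted, with no normalization across arrays. The authors' deposited value table holds log2 values, as judged from the numbers, for which the submitters' processing notes name limma 3.24.15. It served as an alternative. Its control columns have a median of 7.67 and correlate with the scanner levels at r = 0.987 to 0.992; its background correction and centring stay unknown.

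Of the processed signal log2 was taken, control spots and outlier-flagged spots (5, 5 and 10) were left out, spots of a probe were averaged and the 75th percentile of each array was set to 0 (Python 3.11.15, R 4.3.3, limma 3.58.1; checked on simulated data). Names came from the RefSeq table of UU_Cfam_GSD_1.0 through each probe's accession, for names only, and 1313 of 43603 probes matched. The group and the gene lists were chosen with earlier results of these data known, and 7 of 40 lists after the names were seen. The text names the 15 brightest genes, the ends and up to 4 not detected genes of each list, up to 6 present markers of each marker list, the 5 genes of highest SD, the genes of widest probe range and 44 genes fixed by name, 21 of them without a named probe. KITLG, SLC45A2, MC4R, EDN3, IL1A, IL1B, TNF, IL18, IL6, OAS3, ADRB3 and ADORA2A were chosen after their values were seen. The normexp alternative used median spot signals. Alternatives covered the presence call, the normalization, the probe rule and each array left out. Some genes that the rule takes are not reported here.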

Additional observations from a re-analysis of the deposited data

How the results depend on the processing

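Levels and counts were recomputed under 11 alternatives, of which normexp on median signals was chosen after seeing the data, in place of the planned one on mean signals, which was not run. The call of what is not detected depended on the rule for presence. With the scanner's weaker flag for positive and significant signal, 20 named genes were not detected in place of 128, 52 of the 128 became present, and 333 were dim in place of 188. With the 99th percentile of the negative control spots as the limit, 58 were not detected. The numbers of present probes, present genes and abundant genes stayed within 1.5 times under every alternative run for them. Leaving out 1 array gave 31537 to 32554 present probes, 603 to 632 present genes, 132 to 173 not detected, 71 to 72 abundant and 192 to 222 dim. Quantile normalization left every named gene in its class, and normexp and the authors' values kept 98.9%. The median over all probes kept 91.3%, with 57 abundant genes in place of 72. These alternatives changed levels only and kept the presence calls, so the 105 mixed and 128 not detected genes could not change class. Levels of the 267 genes chosen by rule moved by more than 1 SD in 250 with normexp and in 240 with the authors' values, by a median of 0.195 and 0.157 log2 units over present genes. No paired analysis was possible because there was 1 group and no test. Signal over background limits the dim genes, whose median SD was 0.19.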

Other observations

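Of the 436 probes in the top 1% by mean level 41 (9.40%) were named, from 23 genes, against 3.01% of all probes. The brightest probe of the array, A_11_P146083, was unnamed and read 7.72, 7.80 and 7.75, and the unnamed A_11_P208293 averaged 7.56 ± 0.08. The kind of accession a probe was built on went with its signal. Of 17073 probes built on predicted transcripts 86.6% were present, against 73.1% of those on assembled expressed sequences, 68.8% of those on curated transcripts, 65.3% of those on Ensembl transcripts, 59.0% of those with no accession and 56.3% of 12406 probes on single expressed sequences or other records. The named genes come from curated transcripts and so sample 1 of these kinds.

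Some strong signals came from genes outside the lists or of restricted tissues. SHOX, a homeobox gene of limb growth, read 4.44, 4.20 and 4.05 on its 1 probe. S100A4, a calcium-binding protein often high in motile cells, averaged 6.28 ± 0.01, and CLU, the secreted chaperone clusterin, averaged 6.27 ± 0.02 with all 5 of its probes present. PAX6, a homeobox gene of eye and brain, averaged 2.65 ± 0.01 with both probes present. These genes were picked after their values were seen.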
